A study of Nicotiana tabacum with 15 samples.

Results

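GJ is an F1 tobacco hybrid of the mother G70 and the father JCP (Jiucaiping No.2), and K326 is an inbred cultivar that served as mother in another cross and is no parent of GJ. The series held 15 root libraries, and the test took the spread of each gene from all of them. The comparison itself was between 6 libraries, the 3 of GJ and the 3 of K326. Genes reaching 1 FPKM (fragment numbers scaled to transcript length and library size) in at least 3 of these 6 libraries were tested, which kept 35246 of 69500 genes. The comparison asked which of the expression changes that set GJ apart from its own parents were already present in K326, and which were not.

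The series held 5 genotypes of Nicotiana tabacum with 3 libraries each, namely the F1 hybrids GJ (G70 × JCP) and KJ (K326 × JCP) and the parents K326, G70 and JCP. All plants were untreated seedlings raised by the floating method and sampled at the same leaf stage, and none carried a transgene. The library titles name leaf whereas the tissue entry and the study's methods name root, and root was followed here. No source used here paired the gene IDs with gene names, so root and leaf markers were not checked. Whether a library came from a single seedling or from a pool was not given, and each p-value therefore reflects library-to-library spread that may be technical. The reads of every genotype were mapped to the genome of K326, and lower mapping of G70 or JCP alleles cannot be told apart from lower expression.

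Heterosis is the advantage of an F1 hybrid over its parents, and in tobacco it is seen in root number, which bears on water and nutrient uptake and on nicotine, an alkaloid made in the root. A hybrid carries 1 set of alleles from each parent, so a gene silent in 1 parent is usually expressed in the hybrid from the other. A level outside the range of both parents is called overdominant expression. Another inbred line such as K326 shows how far inbred roots differ among themselves.

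Some genes were expressed in a hybrid and off in both of its labelled parents, and the cause was not tested. These genes, and libraries that stood apart, bear on the results below. Of 6 genes expressed in K326 and off in G70 and JCP, 2 were found in every GJ library, and of 7 genes expressed in G70 and off in K326 and JCP, 5 were found in every KJ library. K326 replicate 2 stood apart, with a Pearson correlation across the 35246 genes of 0.927 to 0.943 with the other K326 libraries, against 0.980 between K326 replicates 1 and 3 and 0.961 to 0.979 within GJ. GJ replicate 1 lacked 58 genes that the other GJ libraries held at 3 FPKM or more, against 4 and 12 such genes for GJ replicates 2 and 3. The GJ libraries had fewer genes at 1 FPKM or more (33714 to 34319) than the K326 libraries (34866 to 35535). The 100 most abundant genes took 11.5% to 12.7% of the summed FPKM in GJ and 9.87% to 10.6% in K326. Both measures separated the genotypes without overlap, with p = 0.1 in a two-sided exact permutation test, the smallest p that 20 splits allow. The depth of the libraries is unknown from FPKM values alone.

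GJ differed from K326 in 737 genes (2.09% of those tested), of which 306 were higher in GJ (0.868%) and 431 lower (1.22%). The calls required an absolute log2 fold change of 1 or more on log2(FPKM + 1) and an adjusted p no higher than 0.05 (limma's moderated test, Benjamini-Hochberg adjustment). The fit held all 15 libraries. A fit of GJ and K326 alone gave 222 higher and 310 lower genes and kept 471 of the 737 calls. In all 737 genes the 3 GJ libraries lay wholly above or wholly below the 3 K326 libraries, as they did for 10.9% (above) and 24.2% (below) of all genes tested. The median log2 fold change over all tested genes was -0.10, so a gene at the median was slightly lower in GJ. The split of the calls rested on the scaling, with 365 genes higher and 336 lower after median-of-ratios scaling and 422 higher and 363 lower after quantile normalization. Without K326 replicate 2 the counts were 163 higher and 218 lower, and without GJ replicate 1 they were 170 higher and 272 lower.

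**Figure D1:**
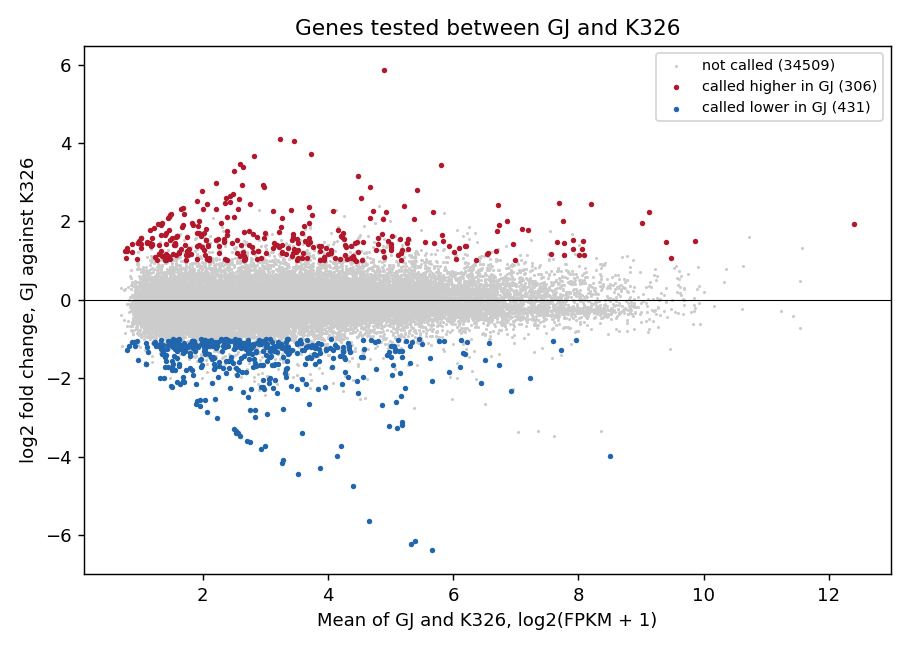
Each point is 1 of the 35246 genes tested, with the mean of GJ and K326 as log2(FPKM + 1) on the x axis and the log2 fold change of GJ against K326 on the y axis. The 306 red genes were called higher in GJ and the 431 blue genes lower, and the fold changes reach from -6.39 to 5.86.

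The largest rises were genes that K326 hardly expressed. Nitab4.5_0005251g0020 had 52.9, 53.8 and 65.9 FPKM in GJ and was listed at 0 in every K326 library. It was also listed at 0 in every library of G70 and JCP, while the other hybrid KJ had 24.1, 21.9 and 16.5 FPKM. The gene was thus on in both hybrids and listed at 0 in all 9 libraries of the inbred lines (adjusted p = 4.9e-11 for GJ against K326, limma's moderated test).

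The same arrangement was seen in 3 further genes. Nitab4.5_0001327g0090 had 4.84, 23.4 and 31.6 FPKM in GJ and was listed at 0 in K326 (adjusted p = 0.00086, limma). Nitab4.5_0008647g0010 had 10.6, 8.90 and 10.8 FPKM in GJ and was listed at 0 in K326 (adjusted p = 9.6e-10, limma). Nitab4.5_0000326g0110 had 4.8, 12.04 and 14.6 FPKM in GJ, against 0, 0.03 and 0 FPKM in K326 (log2 fold change 3.39 ± 0.33 SE, adjusted p = 7.0e-05, limma). In none of the 3 genes did a library of K326, G70 or JCP exceed 0.11 FPKM, and all KJ libraries were above it. GJ replicate 1 was the lowest GJ library for 2 of them, Nitab4.5_0001327g0090 and Nitab4.5_0000326g0110.

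Other large rises lay near the level of the mother G70. Nitab4.5_0000069g0380 had 20.7, 15.5 and 14.3 FPKM in GJ, against 0.04, 0 and 0.07 FPKM in K326 (log2 fold change 4.09 ± 0.18 SE, adjusted p = 2.3e-08, limma). G70 had 12.5, 10.8 and 18.3 FPKM of this gene and JCP no more than 0.07 FPKM, so GJ overlapped its mother and stood apart from K326 and JCP. Nitab4.5_0004024g0020 had 15.8, 13.3 and 7.42 FPKM in GJ, was listed at 0 in K326 and JCP, and had 6.82, 5.65 and 4.88 FPKM in G70. Every GJ library lay above every G70 library for this gene, but the difference stayed under the fold limit (log2 fold change 0.91 ± 0.22 SE, adjusted p = 0.018, limma).

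Nitab4.5_0001937g0030 was a gene in which K326 was the low line among the inbreds. It had 24.4, 26.7 and 20.2 FPKM in GJ, against 0.72, 1.5 and 0.51 FPKM in K326 (log2 fold change 3.72 ± 0.41 SE, adjusted p = 0.00026, limma). JCP had 8.12, 10.5 and 9.12 FPKM and G70 had 9.75, 1.69 and 8.27 FPKM, all below every GJ library. K326 was called lower than JCP in this gene (log2 fold change -2.45 ± 0.41 SE, adjusted p = 0.015, limma).

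The largest falls were genes near 0 in GJ that every inbred line expressed. Nitab4.5_0000363g0010 had 0, 0.64 and 0 FPKM in GJ, against 82.2, 89.9 and 126 FPKM in K326 (log2 fold change -6.39 ± 0.29 SE, adjusted p = 4.0e-08, limma). Nitab4.5_0003151g0070 had 0, 0.16 and 0 FPKM in GJ, against 85.2, 71.7 and 77.9 FPKM in K326 (log2 fold change -6.23 ± 0.15 SE, adjusted p = 4.9e-11, limma). Nitab4.5_0006411g0010 had 0, 0.07 and 0.10 FPKM in GJ, against 88.2, 38.9 and 118 FPKM in K326 (log2 fold change -6.15 ± 0.41 SE, adjusted p = 2.1e-06, limma). Each of these genes was at 38.4 FPKM or more in all libraries of G70 and JCP, and GJ was lower than each of these parents by log2 fold changes between -6.34 and -6.01.

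A milder gene of this kind was Nitab4.5_0000287g0070. It was listed at 0 in the GJ libraries and had 19.2, 17.8 and 25.8 FPKM in K326 (adjusted p = 9.6e-10, limma). KJ had 16.9, 16.02 and 16.6 FPKM, G70 19.98, 19.5 and 25.7 FPKM and JCP 19.4, 15.9 and 18.9 FPKM, so GJ was the only genotype of the 5 without a measured transcript. Its neighbour by ID of the first fall, Nitab4.5_0000363g0020, was likewise listed at 0 in GJ and had 11.2, 9.40 and 9.58 FPKM in K326.

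The other falls followed G70. Nitab4.5_0027235g0010 was listed at 0 in GJ and had 45.9, 53.2 and 47.1 FPKM in K326, 0, 0 and 0.16 FPKM in G70 and 50.7, 46.3 and 50.9 FPKM in JCP. Nitab4.5_0000714g0090 had 0.76, 0.19 and 0.64 FPKM in GJ, against 36.9, 42.2 and 39.8 FPKM in K326 (log2 fold change -4.75 ± 0.14 SE, adjusted p = 7.5e-10, limma). G70 held between 0.71 and 1.11 FPKM of the second gene and JCP between 41.5 and 43.2 FPKM. In both genes GJ lay with its mother, although its father JCP and K326 expressed them at like levels.

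**Figure D2:**
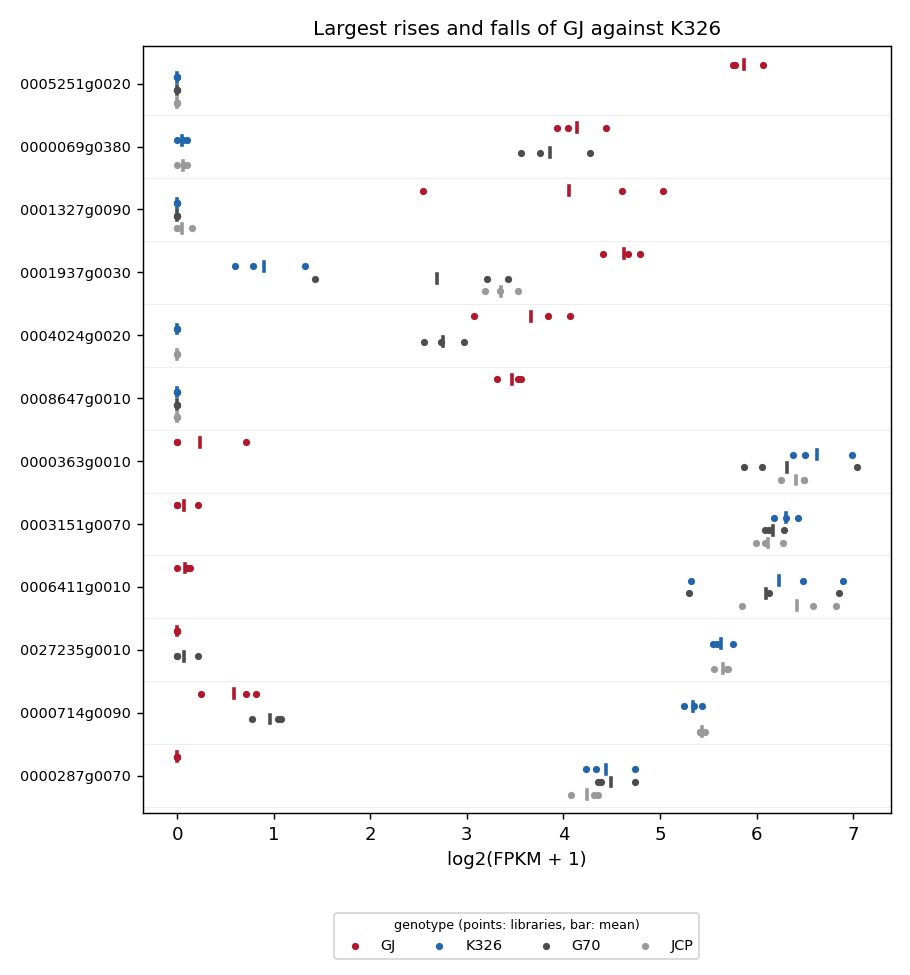
Levels of the 6 largest rises (upper rows) and 6 largest falls (lower rows) of GJ against K326, as log2(FPKM + 1) on the x axis, with a point for each library and a bar for each mean of GJ, K326, G70 and JCP. GJ stands alone in Nitab4.5_0005251g0020, Nitab4.5_0001327g0090 and Nitab4.5_0008647g0010, and it lies near 0 beside 3 expressing inbred lines in Nitab4.5_0000363g0010, Nitab4.5_0003151g0070, Nitab4.5_0006411g0010 and Nitab4.5_0000287g0070.

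Genes listed at 0 in 1 of the genotypes were counted as a group, without a fold change. In 20 genes K326 was listed at 0 in every library while every GJ library had 1 FPKM or more, and in 16 genes GJ was listed at 0 while every K326 library had 1 FPKM or more. Of the 20 genes, 5 were at 1 FPKM or more in every G70 library, 4 in every JCP library, and 5 were listed at 0 in all libraries of both parents. Of the 16 genes listed at 0 in GJ, 13 were at 1 FPKM or more in every G70 library and 10 in every JCP library, and 13 were above 0 in every KJ library. The matching shares over all genes were not counted, so these numbers cannot be read as many or few. Nitab4.5_0005995g0020 was the one gene of the 16 with no library of either parent at 1 FPKM or more. It was listed at 0 in GJ and between 10.99 and 11.26 FPKM in K326, with no library of G70 or JCP above 0.09 FPKM.

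The most abundant transcript of the comparison was also higher in GJ. Nitab4.5_0000309g0200 had 8617, 6488 and 10504 FPKM in GJ, against 3178, 1785 and 1864 FPKM in K326 (log2 fold change 1.93 ± 0.34 SE, adjusted p = 0.0083, limma). Each GJ library was more than any K326 library, and K326 lay below most libraries of G70 (4958, 2700 and 5330 FPKM) and JCP (3283, 3533 and 3050 FPKM). The other 5 of the 6 most abundant genes were not called, with log2 fold changes from -0.71 (Nitab4.5_0000374g0050) to 1.33 (Nitab4.5_0000037g0340), although the first was called after quantile normalization and the second without G70 replicate 2 (adjusted p = 0.026 and 0.036, limma). Quantile normalization brought the fold of Nitab4.5_0000309g0200 to 0.94, under the limit.

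Called genes were then placed against the hybrid's own parents, over the 36889 genes that reached 1 FPKM in 3 or more of the 12 libraries of GJ, K326, G70 and JCP. With this filter GJ was higher than K326 in 303 genes (0.821%) and lower in 429 (1.16%). In these 12 libraries 4.87% of all genes were called between GJ and G70, 3.76% between GJ and JCP, 0.813% between K326 and G70 and 0.417% between K326 and JCP. GJ was called the same way against both G70 and JCP in 174 of the 303 and 152 of the 429. It was called the same way against G70 alone in 30 higher and 88 lower genes, and against JCP alone in 54 higher and 65 lower genes. In 45 higher and 124 lower genes GJ was called against neither parent in that direction, and within these K326 itself was called against both G70 and JCP in 12 and 11. These comparisons share the GJ libraries or the K326 libraries, so the counts describe where the genes fall and test nothing. Without K326 replicate 2, the genes called against K326 and both parents numbered 75 higher and 74 lower, and without GJ replicate 1 they numbered 86 and 90. Without JCP replicate 1 the lower genes numbered 95.

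Read the other way, most changes of the hybrid against its parents were not called against K326. GJ was above both parents in 469 genes, of which 174 were also called higher than K326, 1 was called lower and 294 were not called. GJ was below both parents in 346 genes, of which 152 were also called lower than K326 and 194 were not called. The missing calls do not place K326 at the level of the hybrid, since the 95% interval of the difference between GJ and K326 lay within 1 log2 unit of 0 in only 15 of the 469 and 24 of the 346. The median difference between GJ and K326 was 1.07 on the log2 scale over the 469 genes and -1.08 over the 346, beside -0.10 over the 35246 genes tested between them. Both lists were chosen on the same GJ libraries, which favours such a shift, so these medians are descriptions. K326 was called on the same side of both parents in 2 and 6 genes. Over all 36889 genes K326 was called against G70 in 0.813% and against JCP in 0.417%. The share of all genes called on the same side of both was not counted, so the 2 and 6 cannot be read as few or many.

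In those 2 and 6 genes K326 was called in the direction of the hybrid's change, though not always to the same degree. Nitab4.5_0000202g0480 had 2.32, 3.29 and 3.70 FPKM in GJ and 5.22, 4.77 and 3.97 FPKM in K326, while no library of G70 or JCP exceeded 0.04 FPKM. GJ was higher than G70 (log2 fold change 1.98 ± 0.17 SE, adjusted p = 1.8e-05, limma) and so was K326 (2.46 ± 0.17 SE, adjusted p = 2.1e-06, limma). Every GJ library lay below every K326 library, and the difference between them was not called (log2 fold change -0.47 ± 0.17 SE, adjusted p = 0.12, limma).

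Nitab4.5_0011192g0010 was the other higher gene. It had 3.43, 1.17 and 1.15 FPKM in GJ and 4.42, 5.62 and 5.66 FPKM in K326, against at most 0.18 FPKM in G70 and JCP. Both GJ and K326 thus held a transcript that the labelled parents of GJ nearly lacked, with GJ the lower of the pair (log2 fold change -1.18 ± 0.24 SE, adjusted p = 0.017, limma). The call between GJ and K326 was lost in 6 alternatives, among them without K326 replicate 2 (adjusted p = 0.072) or 3 (0.052) and without GJ replicate 2 (0.063) or 3 (0.065, limma).

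Among the 6 lower genes, Nitab4.5_0000245g0270 was listed at 0 in all libraries of GJ, KJ and K326. It had 19.6, 17.4 and 7.68 FPKM in G70 and 12.3, 10.6 and 18.2 FPKM in JCP. Nitab4.5_0001523g0030 had 10.8, 4.31 and 4.27 FPKM in GJ and 3.98, 6.22 and 3.95 FPKM in K326, against 91.8, 147 and 61.5 FPKM in G70 and 32.2, 32.9 and 58.1 FPKM in JCP. GJ and K326 overlapped in both genes and lay below every library of G70 and JCP (for the second gene, GJ against G70 -3.78 ± 0.55 SE, adjusted p = 0.0017, and K326 against G70 -4.08 ± 0.55 SE, adjusted p = 0.0014, limma).

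In the other named genes of this kind GJ and K326 fell to different degrees. Nitab4.5_0012336g0020 had 0, 0.04 and 0.05 FPKM in GJ, against 6.01, 5.15 and 6.04 FPKM in K326 (log2 fold change -2.71 ± 0.28 SE, adjusted p = 0.00011, limma). G70 had 19.98 to 26.1 FPKM and JCP 9.16 to 27.1 FPKM, so K326 stood between GJ and its parents. Nitab4.5_0004287g0100 had 4.24, 17.9 and 16.6 FPKM in GJ and 5.04, 7.04 and 4.65 FPKM in K326, against 26.5 FPKM or more in every library of G70 and JCP, and here GJ replicate 1 alone lay below all of K326. GJ was not called against K326 in this gene (log2 fold change 0.89 ± 0.36 SE, adjusted p = 0.16, limma), but without GJ replicate 1 it was called higher (1.49, adjusted p = 0.00028, limma).

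The same question was put to comparisons that share no library. Both took the spread of each gene from the same fit of 15 libraries, so their calls are not fully independent. GJ was higher than G70 in 886 genes (2.40%) and lower in 912 (2.47%), and K326 was higher than JCP in 103 genes (0.279%) and lower in 51 (0.138%). The higher lists shared 5 genes, which is 0.564% of the GJ list and 4.85% of the K326 list, and the lower lists shared 7, which is 0.768% and 13.7%. More genes moved in opposite directions, 9 of those higher in GJ and 25 of those lower. With the parents exchanged, GJ was higher than JCP in 729 genes (1.98%) and lower in 657 (1.78%), and K326 was higher than G70 in 154 (0.417%) and lower in 146 (0.396%). The higher lists shared 7 genes (0.960% and 4.55%) and the lower lists 14 (2.13% and 9.59%), beside 31 and 32 that moved in opposite directions. No test of these overlaps was run.

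K326 leaned towards the hybrid by a small amount over these lists. Over the 886 genes higher in GJ than in G70 the median of K326 minus JCP was 0.27 on the log2 scale, beside 0.04 for all genes, and over the 912 lower genes it was -0.11. Over the 729 genes higher in GJ than in JCP the median of K326 minus G70 was 0.32, beside 0.05 for all genes, and over the 657 lower genes it was -0.16. All 3 K326 libraries lay above all 3 JCP libraries in 16.4% of the 886 genes (10.4% of all genes) and below them in 14.6% of the 912 (4.97% of all). Against G70 the shares were 15.0% above for the 729 genes (8.16% of all) and 16.6% below for the 657 (4.60% of all).

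The K326 libraries differed in this lean. Over all genes the median against the JCP mean was 0.01 in K326 replicate 1, 0.13 in replicate 2 and -0.03 in replicate 3, and against the G70 mean it was 0.02, 0.14 and -0.01. For the genes higher in GJ, the medians were 0.40, 0 and 0.35 over the 886 genes (against JCP) and 0.41, 0.03 and 0.45 over the 729 genes (against G70). Replicates 1 and 3 thus lay above their all-gene medians and replicate 2 below its own.

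For the genes lower in GJ, the medians in K326 replicates 1, 2 and 3 were -0.15, 0.0016 and -0.17 over the 912 genes (against JCP) and -0.28, 0.11 and -0.27 over the 657 genes (against G70). All 3 libraries lay below their all-gene medians in both lists, replicate 2 by the least.

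The count of genes that moved alike depended on single libraries. It was 12 in the first pair of comparisons, 29 without K326 replicate 2, 20 without JCP replicate 2 and 7 without JCP replicate 3. In the second pair it was 21, with 41 without K326 replicate 2 or G70 replicate 3, 34 without JCP replicate 2, 12 without JCP replicate 1 and 10 without JCP replicate 3.

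**Figure D3:**
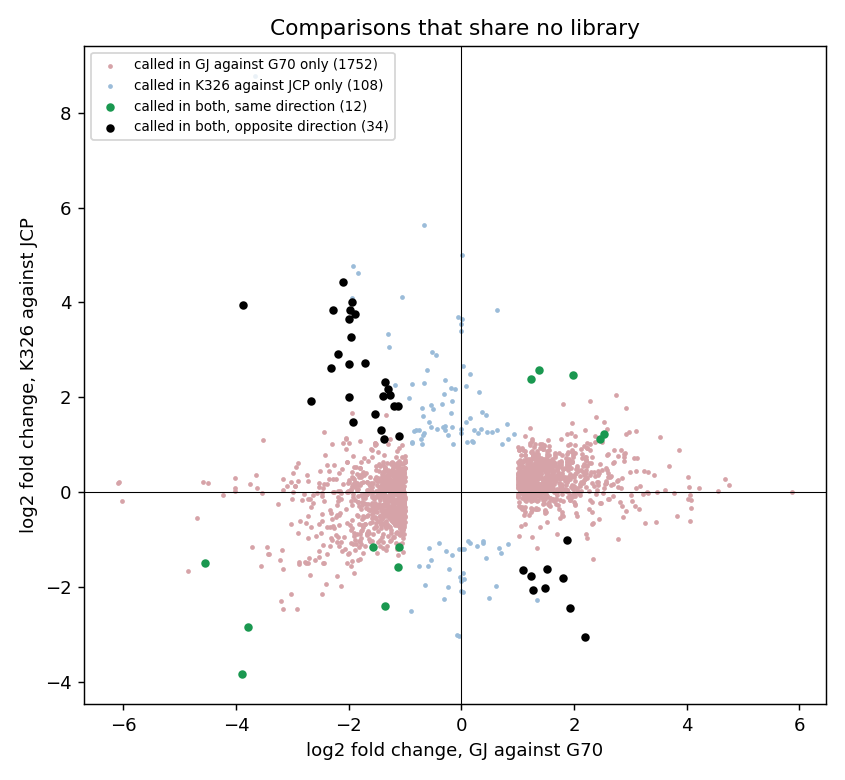
Genes called in GJ against G70 or in K326 against JCP, with the log2 fold change of GJ against G70 on the x axis and that of K326 against JCP on the y axis. The 12 green genes carried calls of like direction in the pair of comparisons, the 34 black genes calls of opposite direction, and the cloud of genes called in GJ alone lies along the x axis.

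The genes that some parental lines expressed and others did not were used to see which parental transcripts were found in GJ. A gene was taken as on at 3 FPKM or more in each library of a line and as off at 0.3 FPKM or less, limits set after the values were seen, which gave 73 genes with different states among K326, G70 and JCP. In the 34 genes on in JCP and K326 and off in G70, GJ was above 0.3 FPKM in every library for 33, with a median of 87.6% of the level in the lines that were on. In the 21 genes on in G70 and K326 and off in JCP, GJ was above 0.3 FPKM in every library for 6, with a median of 38.1%. The other 15 were off in GJ replicate 1 and above 0.3 FPKM in GJ replicates 2 and 3. The median of 38.1% thus rests on means that include a library near 0 in 15 of the 21 genes. The gene at that median, Nitab4.5_0003626g0010, had 0.04, 285 and 300 FPKM in GJ. It had between 347 and 589 FPKM in K326 and between 545 and 583 FPKM in G70. Of the 21 genes, 12 lay in scaffolds Nitab4.5_0001198 and Nitab4.5_0003626, and all 12 were off in GJ replicate 1.

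Some of these genes went against the labelled parentage. Of the 6 genes on in K326 alone, 2 were above 0.3 FPKM in every GJ library, the Nitab4.5_0000202g0480 and Nitab4.5_0011192g0010 described above, and 4 were off in GJ. Of the 7 genes on in G70 alone, 5 were above 0.3 FPKM in every library of GJ and also in every library of KJ, whose labelled parents K326 and JCP were off. Of the 2 genes on in JCP alone, 1 was above 0.3 FPKM in GJ (Nitab4.5_0014353g0010, at 4.82, 3.36 and 2.74 FPKM) and listed at 0 in KJ, a JCP hybrid. The other 2 genes on in G70 alone, Nitab4.5_0000002g0110 and Nitab4.5_0003168g0020, were off in every library of its hybrid GJ. Nitab4.5_0001991g0070, on in JCP alone, was listed at 0 in GJ and KJ. Nitab4.5_0000302g0060, on in K326 alone, was off in every library of its hybrid KJ. Neither the origin nor the absence of these transcripts was tested.

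**Figure D4:**
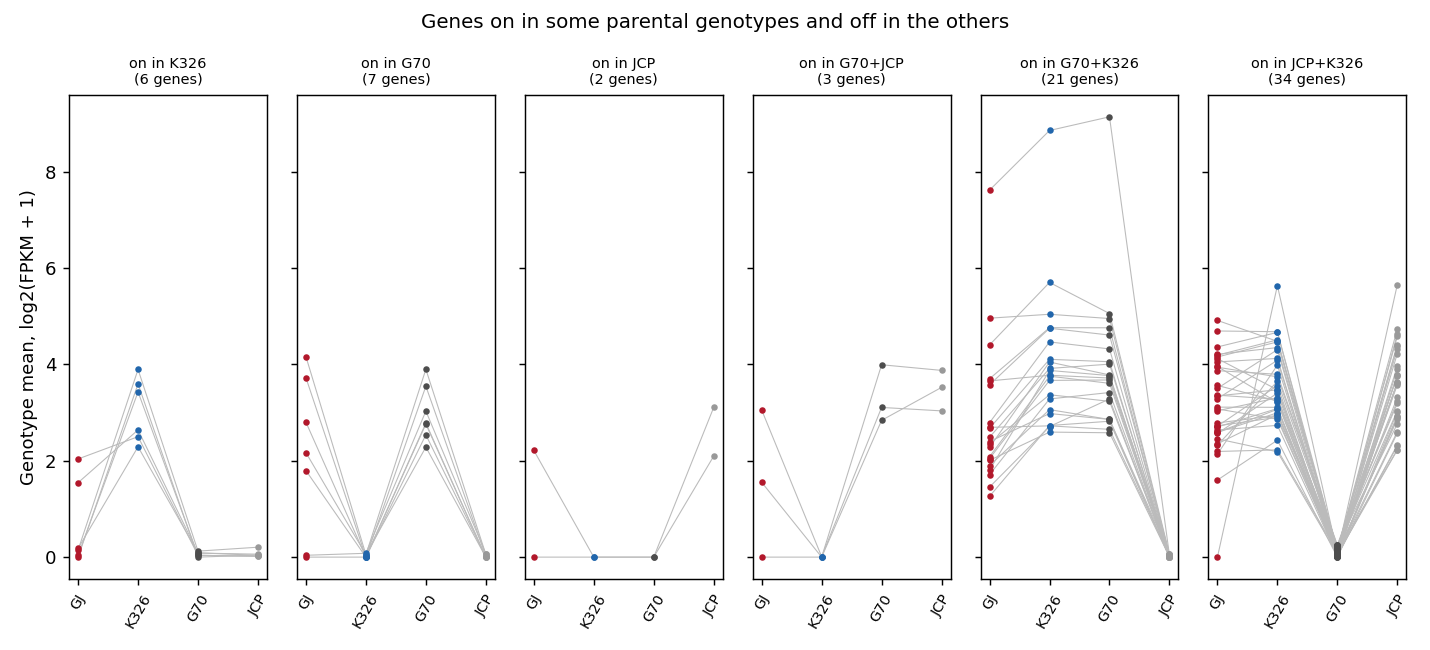
Genotype means as log2(FPKM + 1) on the y axis for the 73 genes that are on in some of K326, G70 and JCP and off in the others, with a panel for each pattern and a grey line for each gene. GJ lies near the expressing lines in the 34 genes on in JCP and K326, and near 0 in 4 of the 6 genes on in K326 alone. The GJ mean lies below the expressing lines in most of the 21 genes on in G70 and K326, of which 15 were off in GJ replicate 1.

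With the same limits, 15 genes were off in GJ and on in both of its parents, and K326 expressed 14 of them. The exception was Nitab4.5_0000245g0270, listed at 0 in K326 too. Over all 69500 genes, only 3 were on in G70 and JCP and off in K326. The share of all genes on in both parents that K326 expressed was not counted, so the 14 cannot be read as many. A further 6 genes were on in GJ and off in both parents, of which 5 were off in every K326 library. The share of all genes off in both parents that were off in K326 was not counted either. The remaining gene, Nitab4.5_0008969g0020, had 10.7, 5.19 and 5.11 FPKM in GJ and 10.2, 1.22 and 0.73 FPKM in K326, so K326 lay near GJ in replicate 1 only. 

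Some called genes shared scaffolds, the assembled pieces of the genome that the first part of each gene ID names. Whether called genes shared scaffolds more often than other genes was not tested. There were 8 scaffolds with 3 or more genes called one way and none the other, of which the 6 with the highest share of called genes are described. A further 7 scaffolds with 3 or more genes called one way and at least 1 the other are not described, and since the scaffolds were picked for their calls, their counts are descriptions. Scaffold Nitab4.5_0000314 held 9 tested genes, of which 5 were higher in GJ, beside 0.868% of all genes tested. Nitab4.5_0000314g0010 had 199, 143 and 136 FPKM in GJ, against 57.1, 48.9 and 35.0 FPKM in K326 (log2 fold change 1.75 ± 0.31 SE, adjusted p = 0.0085, limma). Nitab4.5_0000314g0070 had 417, 403 and 301 FPKM in GJ, against 185, 158 and 159 FPKM in K326 (log2 fold change 1.14 ± 0.18 SE, adjusted p = 0.0039, limma). The groups did not overlap in any of the 5 genes. All 5 were also called higher in GJ than in G70 and JCP, and K326 was called against neither parent in any of them. Nitab4.5_0000314g0020 lost its call without GJ replicate 1 (adjusted p = 0.093) and without K326 replicate 1, 2 or 3 (adjusted p = 0.059, 0.090 and 0.063, limma), and Nitab4.5_0000314g0040 without GJ replicate 1 (adjusted p = 0.060, limma). Nitab4.5_0000314g0020 and Nitab4.5_0000314g0050 lost theirs in the fit of GJ and K326 alone (adjusted p = 0.057 and 0.052, limma). With GJ replicate 1 and K326 replicate 2 both left out, none of the 5 was called (adjusted p between 0.076 and 0.22, limma).

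The 5 described scaffolds with lower genes showed 3 arrangements, beside 1.22% of all tested genes called lower. On scaffold Nitab4.5_0000206, 3 of 11 genes were lower in GJ, and Nitab4.5_0000206g0110 had 7.36, 6.65 and 6.50 FPKM in GJ, against 24.4, 26.7 and 22.9 FPKM in K326 (log2 fold change -1.71 ± 0.14 SE, adjusted p = 9.2e-06, limma). GJ was near the level of G70 (10.8, 8.04 and 7.67 FPKM) and far under that of JCP (26.3, 24.4 and 26.8 FPKM), and the same held for the 2 called neighbours. Scaffold Nitab4.5_0000767, with 3 of 6 genes lower, shared that arrangement in Nitab4.5_0000767g0020 and Nitab4.5_0000767g0030.

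On scaffold Nitab4.5_0002405, 3 of 6 genes were lower in GJ than in all 3 inbred lines. The call of Nitab4.5_0002405g0070 against K326 was lost in 3 alternatives (adjusted p up to 0.11, limma). Nitab4.5_0002405g0130 had 7.34, 6.03 and 8.08 FPKM in GJ, against 27.1, 33.6 and 32.5 FPKM in K326 (log2 fold change -1.98 ± 0.15 SE, adjusted p = 5.0e-06, limma), with G70 at 30.2 FPKM or more and JCP at 28.1 FPKM or more. On scaffold Nitab4.5_0001544, 3 of 9 genes were lower in the same way, but all 3 calls were lost without K326 replicate 2 and without GJ replicate 1 (adjusted p up to 0.22 over the alternatives, limma).

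On scaffold Nitab4.5_0001198, 7 of 24 genes were lower, and here GJ replicate 1 was near 0. Nitab4.5_0001198g0330 had 0.01, 15.8 and 17.1 FPKM in GJ, against 60.8, 62.8 and 56.9 FPKM in K326 (log2 fold change -3.18 ± 0.80 SE, adjusted p = 0.041, limma). GJ replicates 2 and 3 were also below every library of K326, G70 and JCP, and the call was lost in 13 alternatives (adjusted p up to 0.14, limma).

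Some of the genes that the study or an earlier account of these data connects with root growth were given as a list of 17. The list was chosen with results of these libraries known and so is no independent evidence of direction. It holds 3 genes of cell differentiation, 6 hub genes of a co-expression network, 7 auxin genes and a PR-1 gene. The study reports further auxin and PR-1 genes and genes of other hormones, which the list does not cover. The auxin and PR-1 names come from a reading of the study's pictures that could not be checked against an annotation. Of the 17 genes, 16 were tested, 2 were higher in GJ than in K326 and none was lower, beside 0.868% higher and 1.22% lower over all 35246 genes tested.

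The 3 cell differentiation genes had a median log2 fold change of 1.31 in GJ against K326, beside -0.10 for all genes, and 2 were called. Nitab4.5_0008353g0010 had 75.1, 113 and 99.4 FPKM in GJ, against 42.4, 24.7 and 50.03 FPKM in K326 (log2 fold change 1.31 ± 0.33 SE, adjusted p = 0.041, limma). Nitab4.5_0002918g0030 had 28.0, 24.2 and 26.8 FPKM in GJ, against 8.12, 4.01 and 14.0 FPKM in K326 (log2 fold change 1.63 ± 0.43 SE, adjusted p = 0.049, limma). Nitab4.5_0002714g0010 had 48.9, 48.8 and 41.1 FPKM in GJ and 30.1, 11.5 and 24.5 FPKM in K326, and it was not called (adjusted p = 0.054, limma). GJ did not overlap K326 in any of the 3 genes, and K326 replicate 2 was the lowest K326 library in each. Without K326 replicate 2 neither call held (adjusted p = 0.17 for Nitab4.5_0008353g0010 and 0.20 for Nitab4.5_0002918g0030, limma), nor without GJ replicate 1 (adjusted p = 0.073 and 0.14, limma). In all, the calls were lost in 12 and 16 of the alternatives, with adjusted p up to 0.20 and 0.36 (limma). All 3 were called higher in GJ than in G70 and than in JCP, whereas K326 was called against neither.

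The 6 hub genes comprise a lysine tRNA ligase, which charges tRNA for protein synthesis, 3 protein kinases, which pass on signals by phosphorylation, an epimerase/dehydratase and a mitochondrial carrier, which moves metabolites across the inner membrane. None was called between GJ and K326, with a median log2 fold change of 0.97, a range of 0.39 to 1.44 and adjusted p between 0.059 and 0.35 (limma). The lysine tRNA ligase Nitab4.5_0000119g0080 had 131, 75.5 and 73.4 FPKM in GJ and 42.2, 24.7 and 88.0 FPKM in K326 (log2 fold change 0.97, 95% interval 0.13 to 1.82). The kinase Nitab4.5_0004384g0070 had 20.6, 8.99 and 9.70 FPKM in GJ and 4.99, 2.93 and 9.86 FPKM in K326 (log2 fold change 1.06, 95% interval 0.17 to 1.95).

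K326 replicate 3 reached the range of GJ in 5 of the 6 hub genes, and K326 replicate 2 was the lowest K326 library in all 6. The exception was the kinase Nitab4.5_0003282g0020, with 20.01, 9.84 and 10.4 FPKM in GJ and 5.30, 1.5 and 7.31 FPKM in K326 (log2 fold change 1.44 ± 0.40 SE, adjusted p = 0.059, limma). Without K326 replicate 3 this kinase and the lysine tRNA ligase were called higher in GJ (log2 fold changes 1.79 and 1.45, adjusted p = 0.040 and 0.041, limma). Against the hybrid's own parents 4 of the 6, the lysine tRNA ligase and the 3 kinases, were called higher in GJ than in both. K326 was called against neither G70 nor JCP in any of the 6, and with all libraries none was called against GJ either.

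The auxin genes comprise AUX1, an auxin influx carrier, GH3, enzymes that couple auxin to amino acids and so lower its active pool, and SAUR genes, which respond within a short time of auxin treatment. None of the 6 tested was called between GJ and K326, and their median log2 fold change was -0.30. The GH3 gene Nitab4.5_0001954g0010 had 0.73, 1.74 and 1.38 FPKM in GJ and 2.44, 2.32 and 2.59 FPKM in K326 (log2 fold change -0.62 ± 0.28 SE, adjusted p = 0.21, limma). It was the one auxin gene called lower in GJ than in both parents, and all GJ libraries lay below all K326 libraries. The GH3 gene Nitab4.5_0004473g0020 ran the other way, with 9.72, 12.6 and 11.1 FPKM in GJ and 7.86, 4.41 and 3.78 FPKM in K326 (log2 fold change 0.98 ± 0.40 SE, adjusted p = 0.16, limma).

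The remaining auxin genes were less clear. The SAUR gene Nitab4.5_0000063g0100 had 4.07, 5.81 and 3.50 FPKM in GJ and 2.93, 12.3 and 1.82 FPKM in K326, where K326 replicate 2 lay above and the other K326 libraries below all of GJ. The AUX1 gene Nitab4.5_0001889g0140 had 0.74, 1.86 and 0.73 FPKM in GJ and 2.66, 2.15 and 2.62 FPKM in K326 (adjusted p = 0.071, limma). The AUX1 gene Nitab4.5_0009144g0020 was under the filter, with at most 0.94 FPKM in GJ.

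PR-1 is a secreted protein known as a marker of salicylic acid responses and defence. Nitab4.5_0003771g0010 had 2.82, 5.46 and 27.9 FPKM in GJ and 0.28, 1.22 and 1.12 FPKM in K326. The GJ libraries spread widely but all lay above those of K326, and the difference just missed the threshold (log2 fold change 2.30 ± 0.62 SE, adjusted p = 0.0504, limma). Without GJ replicate 1 it was called (2.91, adjusted p = 0.032, limma). KJ had 19.4, 29.0 and 65.1 FPKM, while no library of G70 or JCP was above 0.71 FPKM. K326 was not called against G70 (adjusted p = 0.86) or JCP (adjusted p = 0.89, limma).

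**Figure D5:**
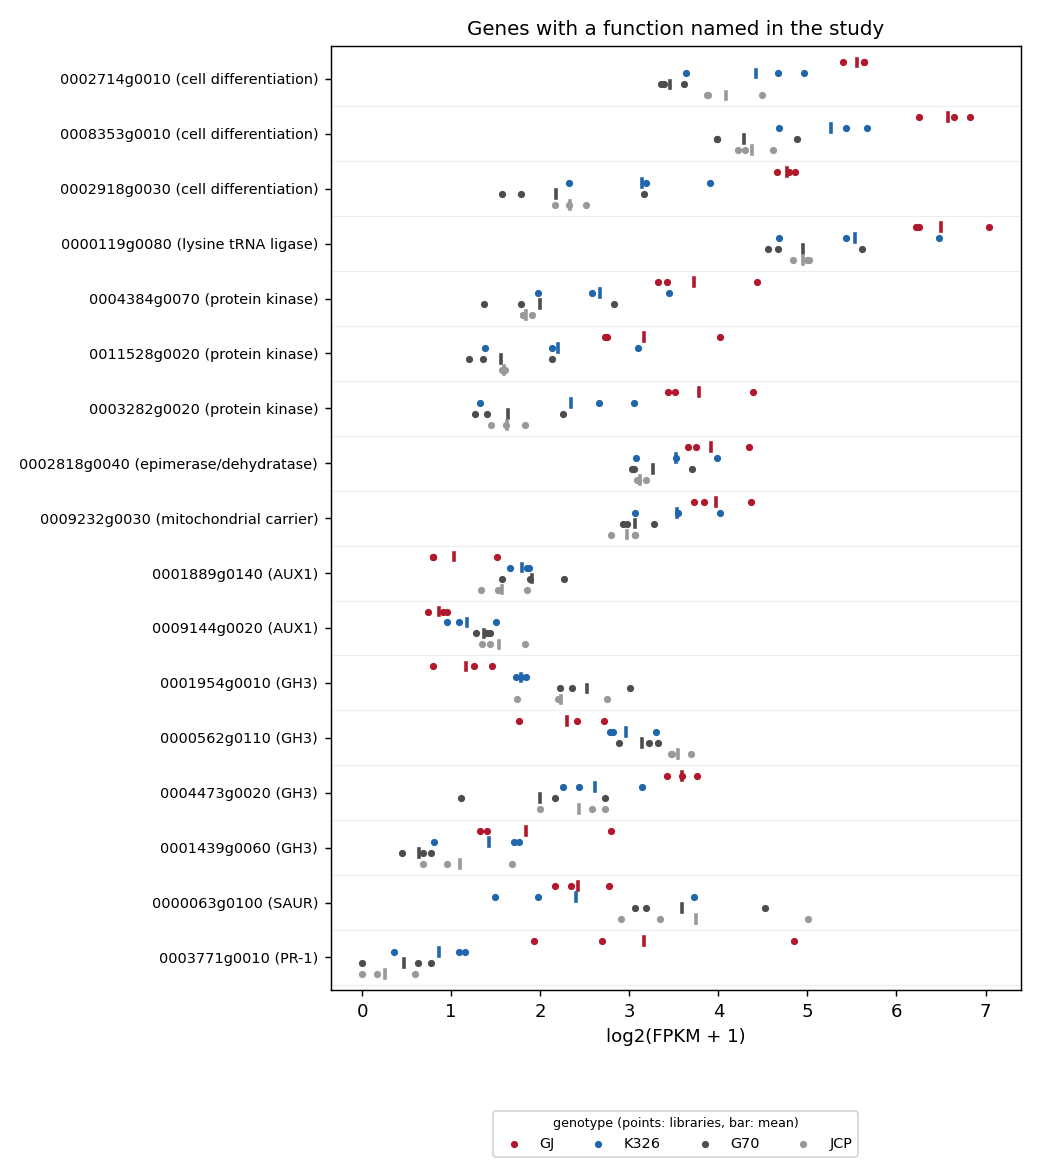
Levels of the 17 listed genes as log2(FPKM + 1) on the x axis, with a point for each library and a bar for each mean of GJ, K326, G70 and JCP. GJ lies to the right of K326 in the 3 cell differentiation genes and in PR-1, while the highest K326 point, replicate 3, reaches the GJ points in 5 of the 6 hub genes.

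Finally, each hybrid was set against the mother of the other cross, over the 37232 genes that reached 1 FPKM in 3 or more of the 15 libraries. GJ was higher than K326 in 306 genes (0.822%) and lower in 430 (1.15%), and KJ was higher than G70 in 1811 (4.86%) and lower in 2613 (7.02%). The comparisons share no library, but they share the spread estimated for each gene over all 15, so their calls are not fully independent. The higher lists shared 163 genes, which is 53.3% of the GJ list and 9% of the KJ list, and the lower lists shared 222, which is 51.6% and 8.50%. The median of KJ minus G70 was 1.07 on the log2 scale over the genes higher in GJ and -1.07 over those lower, beside -0.21 over all genes. Opposite calls were found in 20 and 21 genes. Without K326 replicate 2, 148 genes in all were called alike, and without GJ replicate 1, 168, against 385 with all libraries.

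The difference between these comparisons was itself tested, with 189 genes called higher (0.508%) and 226 lower (0.607%). This difference also holds the gap between the mothers, G70 minus K326. In Nitab4.5_0003151g0070 GJ fell to 0 to 0.16 FPKM, against 71.7 to 85.2 FPKM in K326, while KJ had 45.6 to 65.5 FPKM, against 67.2 to 76.6 FPKM in G70. The log2 fold changes of this gene differed by -5.95 between the crosses (adjusted p = 3.05e-09, limma). In Nitab4.5_0005251g0020 both hybrids were on and both mothers listed at 0, and GJ was the higher hybrid in every library.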

How the data were processed

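The authors discarded low-quality reads and those under 25 nt, aligned what remained to the K326 genome and quantified genes with RSEM. The study's text names Tophat2 as mapper, whereas the labels list HISAT2 and StringTie. The deposited table gives FPKM per gene and library; the sums of 801594 to 827438 per library do not tell FPKM from a TPM-like scale. Read counts were not used here, so counting error is unknown.

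Values were taken as log2(FPKM + 1) and fitted with limma 3.58.1 in R 4.3.3 (5 genotype means, 15 libraries, trend and robust options). All tests were two-sided, and p-values were adjusted by Benjamini-Hochberg across every gene in the test. Plots were drawn with matplotlib 3.10.9.

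Genes were named by rule: the 6 largest rises and falls with a mean of at least 5 FPKM and no overlap, up to 4 genes a side listed at 0, up to 4 a direction called alike or apart in GJ and K326, the 17 listed genes, the 6 most abundant, and up to 6 scaffolds by share of called genes, with at least 3 genes called one way and none the other. Genes shown for the on and off limits outside this rule were chosen after their values were seen. The comparison, the lists and the tests were chosen with earlier results of these data known.

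Replicate numbers were checked for pairing by the correlation of deviations from the genotype means. For GJ and K326 it was 0.03, 0.09 and -0.30, so the numbers did not pair these libraries. For K326 and JCP it was 0.23, 0.57 and 0.31, and for K326 and G70 it was -0.31, -0.28 and 0.37. These values do not establish pairing. The main fit used none, and a fit with the replicate block was an alternative. Other alternatives were a pseudocount of 0.1, other filters, other scalings, unadjusted p, no fold limit, a fit of the compared genotypes alone, and leaving out each library. Leaving out GJ replicate 1 and K326 replicate 2 together was added after the data were examined.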

Additional observations from a re-analysis of the deposited data

Results flagged for a closer look

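In 22 of the genes named by rule, the change of GJ against K326 differed from that of KJ against G70 by a test of the difference itself (limma, Benjamini-Hochberg adjusted p across 37232 genes between 2.47e-10 and 0.0228, and a log2 difference of at least 1). Over all 37232 genes 1.11% were called in this test. Many named genes were picked for their values in GJ and K326, which are part of this difference, so the 22 are a description and no independent support. The difference is given as the GJ comparison minus the KJ comparison, on log2(FPKM + 1), and where a mother or hybrid is listed at 0 it depends on the pseudocount and is no fold change. It was positive in 5 genes, at 5.41 in Nitab4.5_0001523g0030, 4.31 in Nitab4.5_0000069g0380, 3.90 in Nitab4.5_0000245g0270, 3.58 in Nitab4.5_0004024g0020 and 1.43 in Nitab4.5_0005251g0020. The difference also holds the gap between the mothers, G70 minus K326. In Nitab4.5_0000069g0380, for example, the mean was 13.9 FPKM in G70 and 0.04 FPKM in K326, and in Nitab4.5_0027235g0010 it was 0.05 and 48.7 FPKM. In Nitab4.5_0000287g0070 the mothers were near each other, at 19.5 to 25.7 FPKM in G70 and 17.8 to 25.8 FPKM in K326. In Nitab4.5_0000245g0270 every library of GJ, K326 and KJ was listed at 0, so its value came from the level of G70 alone.

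The difference was negative in 17 genes. The larger differences were -9.16 in Nitab4.5_0027235g0010, -8.20 in Nitab4.5_0000714g0090, -6.23 in Nitab4.5_0005995g0020, -6.13 in Nitab4.5_0006411g0010, -6.13 in Nitab4.5_0000363g0010, -5.95 in Nitab4.5_0003151g0070, -5.05 in Nitab4.5_0000767g0010, -4.07 in Nitab4.5_0000287g0070 and -3.03 in Nitab4.5_0000206g0170. The smaller ones were -2.66 in Nitab4.5_0000363g0020, -2.56 in Nitab4.5_0011192g0010, -2.17 in Nitab4.5_0000202g0480, -2.13 in Nitab4.5_0000206g0110, -2.11 in Nitab4.5_0000767g0030, -2.09 in Nitab4.5_0000206g0100, -1.65 in Nitab4.5_0000767g0020 and -1.07 in Nitab4.5_0002405g0130. GJ and K326 have 3 libraries each, so no library could be tested as an outlier within its genotype.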

How the results depend on the processing

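None of the named genes called between GJ and K326 turned its direction in an alternative. Of the 44 named genes called between GJ and K326, 23 were called in every alternative that tested them. With the replicate block, GJ was higher than K326 in 268 genes and lower in 416, and the counts of genes that moved alike were 8 and 19, against 12 and 21 without it. The block moved no count by more than 1.5 times, and among the named genes it lost the calls of Nitab4.5_0001198g0060 and Nitab4.5_0001198g0330 and gained that of the PR-1 gene Nitab4.5_0003771g0010 (adjusted p = 0.026, limma). With the fit of the compared genotypes alone, 222 genes were higher and 310 lower.

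Other thresholds also moved the counts. With unadjusted p, GJ against K326 gave 545 higher and 736 lower genes, the genes that moved alike numbered 161 and 197, the genes apart from K326 and both parents 328 higher and 272 lower, and the genes alike in both crosses 721. With no fold limit the same counts were 555 and 1279, 28 and 59, 347 and 627, and 1234. With a mean of at least 5 FPKM, 165 genes were higher and 226 lower, 7 moved alike in the first pair, 80 were apart and higher, and 216 were alike in both crosses. With a pseudocount of 0.1, 321 were higher and 601 lower, 22 and 33 moved alike, and 262 were apart and lower. The cause was not tested beyond what these settings change by construction.

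Leaving out 1 library at a time gave 163 to 345 higher and 218 to 466 lower genes, 7 to 29 and 10 to 41 that moved alike, 75 to 198 and 74 to 173 apart from K326 and both parents, and 148 to 458 alike in both crosses. With GJ replicate 1 and K326 replicate 2 both left out, the counts were 90 and 150, 26 and 36, 33 and 54, and 60. Fewer libraries give less power by construction, while the counts that moved alike rose here, from 12 and 21 with all libraries. Leaving out K326 replicate 1 gave 239 higher and 353 lower genes, and leaving out replicate 3 gave 253 and 364. Without K326 replicate 2 they were 163 and 218. Why the counts moved was not tested, and 3 libraries a genotype without read counts limit every call here.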
